A study of Homo sapiens with 30 samples.

Results

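Heterogeneous nuclear ribonucleoproteins (hnRNPs) coat newly made transcripts and take part in their splicing, export, stability and translation. The mRNAs of 10 hnRNP genes (HNRNPH1, HNRNPA0, HNRNPA1, HNRNPA2B1, HNRNPC, HNRNPD, HNRNPDL, HNRNPF, HNRNPK and HNRNPU) were examined here as RNAs crosslinked to LARP6. They were 10 of the 62750 genes with a count row, and their peaks were those whose centre lay in the gene on the same strand. The group was chosen by measured values, because HNRNPH1 and HNRNPA0 stood out in peak score and in the difference between LARP6 variants, so those scores and differences are descriptions and none of them was tested. LARP6 is a La-related protein known for its binding of collagen mRNAs. It holds RNA through a folded La-module that is flanked by an N-terminal and a C-terminal region.

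The cells were U-87 MG, an established human glioblastoma line. Stable U-87 MG lines, made by lentiviral transduction and puromycin selection, carried a doxycycline-inducible, N-terminally myc-tagged LARP6, which was full-length (FL) or lacked the N-terminal region (ΔNTR), the C-terminal region (ΔCTR), the La-module (ΔLa-module) or the whole N-terminal domain, that is the N-terminal region together with the La-module (ΔNTD). Parental U-87 MG cells carried no tagged protein and served as the negative control, and the labels give 60 ng/mL doxycycline for 24 h for all 6 lines. All lines kept their own untagged LARP6, and the tagged reading frames were codon-optimised, so the LARP6 counts in the input (51.6 to 75.0 CPM over the 6 lines) do not check which variant a line made. iCLIP, which marks the RNA positions crosslinked to the immunoprecipitated protein by UV light, was done on 3 samples for each variant and for parental cells. The deposited data held 1 peak list per variant, with the 3 replicates merged, their scores summed and the parental peaks subtracted. A peak score is therefore a summed number of crosslink counts, at least 3 for every listed peak, and these merged lists give no spread between replicates for any score. The 95% intervals given below are counting errors only. Input RNA was sequenced once per line and protocol, and in such bulk RNA fewer cells of a type and less RNA per cell cannot be told apart. The paired-end input (PE150) held 25027075 to 28692476 counts in genes and the single-end small-RNA input (SE50) 6181270 to 10307756. Of 8 glial and mesenchymal glioma markers, 5 (VIM, CD44, NES, SPARC and CHI3L1) were above 50 CPM in all 6 PE150 libraries, whereas the defining astrocyte and neural stem cell markers GFAP, S100B and SOX2 were at or near 0, and the summed level of the 8 was 9868 to 10869 CPM. The 5 markers of other cell types were each under 3 CPM.

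The sequences under the strongest FL peak of each gene are given first, because every score below refers to such a site. Each is the 29 nt around the peak centre on the mRNA strand, read from GRCh38, with runs of at least 4 pyrimidines in capitals. HNRNPA1 had no peak and so has no sequence.
HNRNPH1, 3'UTR, chr5:179614713-179614741, minus strand: gtgatttatgcttaCTCTaagtggaaatc
HNRNPA0, 5'UTR, chr5:137754269-137754297, minus strand: gTCTTCCagTCTCCTCggctcgCCCTTTa
HNRNPA2B1, 3'UTR, chr7:26192046-26192074, minus strand: gtggTCTTTgtaagagtgtagaagcattc
HNRNPC, 3'UTR, chr14:21210201-21210229, minus strand: aatggTTTTgTCCTTaaataggagaggct
HNRNPD, 5'UTR, chr4:82373726-82373754, minus strand: gattaCTTTgctgctagTTTCggttcgcg
HNRNPDL, 3'UTR, chr4:82423394-82423422, minus strand: ggccaagtaccaatgttggctgttagaag
HNRNPF, 3'UTR, chr10:43386210-43386238, minus strand: tttataTTTTCatttaaaaTCCTTTaggt
HNRNPK, 3'UTR, chr9:83968613-83968641, minus strand: gcttgCCCCTaCTTTTCaacaaTTTTCTa
HNRNPU, 3'UTR, chr1:244853828-244853856, minus strand: gaaaactaaaacttggaactaagatagag

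The site in HNRNPA0 held 22 pyrimidines in 29 nt and that in HNRNPK 21, against 8 in HNRNPU. The HNRNPH1 site, which had by far the highest score among them, held 15 and only a short pyrimidine run. Over the 31 nt around each centre, the median pyrimidine share of the 38 FL peaks in these genes was 51.6%, and that of all 14333 FL peaks with genome sequence was also 51.6%. The range over the hnRNP peaks was 25.8 to 100%.

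The first comparison asked how much of the LARP6 binding signal fell on these mRNAs. In the FL list 9 of the 10 genes had at least 1 peak, with 38 peaks in all (26.9 to 52.2, exact Poisson) and a summed score of 919 (861 to 980). This was 0.894% of the FL total, and the shares in ΔNTR and ΔCTR were 0.566 and 0.839%. The FL, ΔNTR and ΔCTR lists held 14334, 17180 and 15870 peaks, with total scores of 102788, 92958 and 118751. Raw scores and peak numbers set side by side below are not scaled to these totals. As background, 83% of the 2367 protein-coding genes with at least 100 CPM in the FL input had an FL peak, so the count of 9 in 10 is near what abundant mRNAs showed. The same background was 84.9% for ΔNTR and 87% for ΔCTR, beside 8 and 9 of the 10 genes. HNRNPH1 alone made up 78.3% of the summed FL score of the group and HNRNPA0 6.96%. The other 8 genes together had a summed score of 135 (113 to 160) in 33 FL peaks, and 20 of these were at the minimum score of 3.

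**Figure D1:**
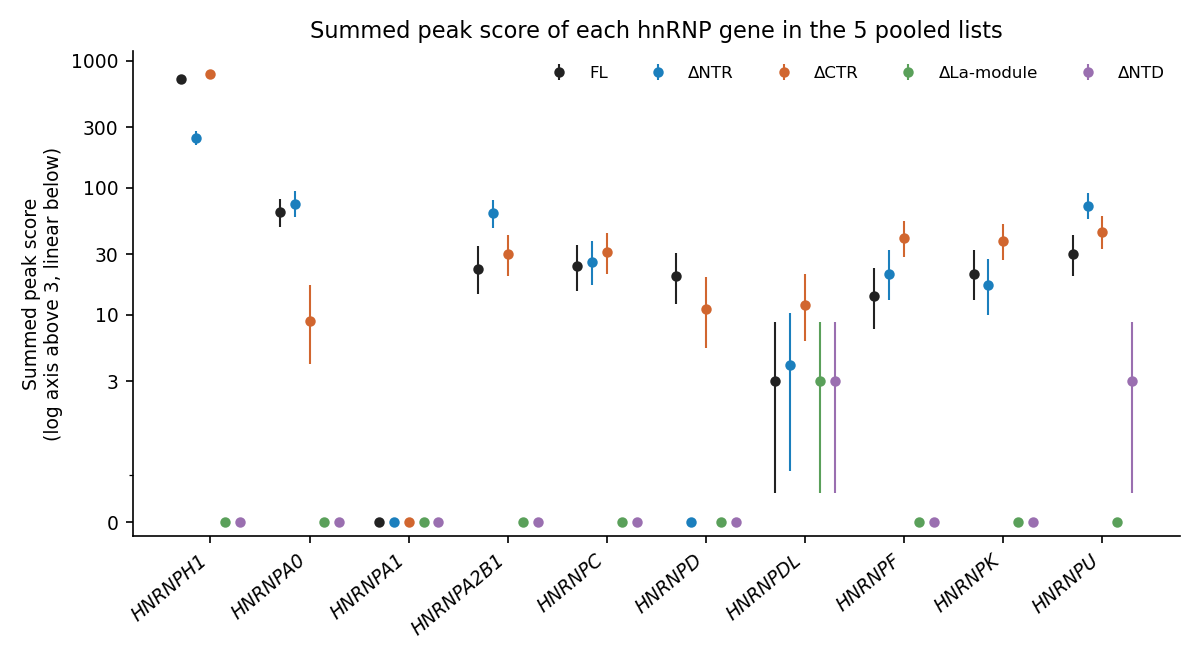
Summed peak score of each hnRNP gene (log axis above 3, linear below) in the pooled FL, ΔNTR, ΔCTR, ΔLa-module and ΔNTD lists, with exact Poisson 95% intervals and no interval where no peak was listed. HNRNPH1 sits at 720, 248 and 780 in FL, ΔNTR and ΔCTR, above all other points of the same lists, and HNRNPA0 sits at 9 in ΔCTR against 64 in FL.

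HNRNPH1 encodes an hnRNP that binds G-rich RNA and regulates alternative splicing. Its FL signal was 1 peak of 19 nt at chr5:179614718-179614736 (minus strand), in the 3'UTR, 233 nt after the last coding base and 549 nt before the end of the canonical mRNA of 2240 nt. The FL, ΔNTR and ΔCTR scores of this peak were 720, 245 and 780, and no peak was listed there in ΔLa-module or ΔNTD. It was thus high in the 3 lists whose LARP6 kept the La-module, and of these lowest in ΔNTR.

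The peak had the second-highest score in the FL list, after a peak of 2098, and also ranked 2 in ΔCTR and 4 in ΔNTR. Its borders moved by no more than 1 nt between the 3 lists. Outside this site HNRNPH1 was nearly empty, with no other FL or ΔCTR peak and 1 ΔNTR peak of score 3, which lay 30 nt after the last coding base of the canonical mRNA and in coding sequence of another transcript. A single peak was uncommon among genes with a summed FL score of at least 100. Of these 192 genes 12 had one, and the medians over the 192 were 13 peaks and 37.4% of the score in the highest. Concentration was greater in the 6 genes with at least 500, where the medians were 7 peaks and 72.1%. A single peak was listed for 2 of those 6, ACTB and HNRNPH1.

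Parts of the HNRNPH1 mRNA recur elsewhere in the genome, so the uniqueness of the site was examined. Of the 49 exonic stretches of 31 nt that touch the FL peak, 35 occurred once in GRCh38 and the rest 2 times. Over all exonic 31-nt stretches of the gene 75.9% occurred once. How the reads with several genomic matches were placed is not given in the sources used here, and their part in the score was not tested.

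HNRNPA0 encodes a small A/B-type hnRNP that binds AU-rich elements, and its canonical mRNA of 8713 nt has a 5'UTR of 297 nt and a 3'UTR of 7498 nt. Its FL peaks had a summed score of 64 (49.3 to 81.7), with 57 of this in 3 peaks of the 5'UTR and 7 in 1 peak of the 3'UTR. The highest, at chr5:137754263-137754304 (minus strand), had a score of 45 in FL, with overlapping peaks of 25 in ΔNTR and 9 in ΔCTR. The 3 FL peaks in the 5'UTR were centred 15, 81 and 126 nt from the annotated 5' end of the mRNA. Their sequences, read in the same way, are shown because they differ in pyrimidine content along 1 UTR.
HNRNPA0 at 15 nt, FL score 8, chr5:137754335-137754363: CTCTTTgtgtggtgcccagataggggagc
HNRNPA0 at 81 nt, FL score 45, chr5:137754269-137754297: gTCTTCCagTCTCCTCggctcgCCCTTTa
HNRNPA0 at 126 nt, FL score 4, chr5:137754224-137754252: TTCCCTCCCCCTTCCTCTCTTCCTTCCTT

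All 31 nt around the peak at 126 nt were pyrimidines, which was so for 8 of the 14333 FL peaks. The 31 nt around the strongest peak were 74.2% pyrimidine, and 5.30% of all FL peaks were at least as pyrimidine-rich. The annotated mRNA itself started with a run of 6 pyrimidines. Every 31-nt exonic stretch touching an HNRNPA0 peak occurred once in the genome.

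The 5'UTR of HNRNPA0 also carried most of its signal in the mutants. In ΔNTR the 5'UTR score was 49 in 4 peaks, 3 of which overlapped the 3 FL peaks, and the 3'UTR score was 20 in 4 peaks. The total in ΔNTR was 75 (59.0 to 94.0) in 10 peaks, 2 of them in the coding sequence. In ΔCTR only 1 peak was listed, with a score of 9 (4.12 to 17.1) over 53 nt of the 5'UTR that overlapped the FL peak of 45 and the edge of the FL peak of 4. No peak was listed in ΔLa-module or ΔNTD.

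**Figure D2:**
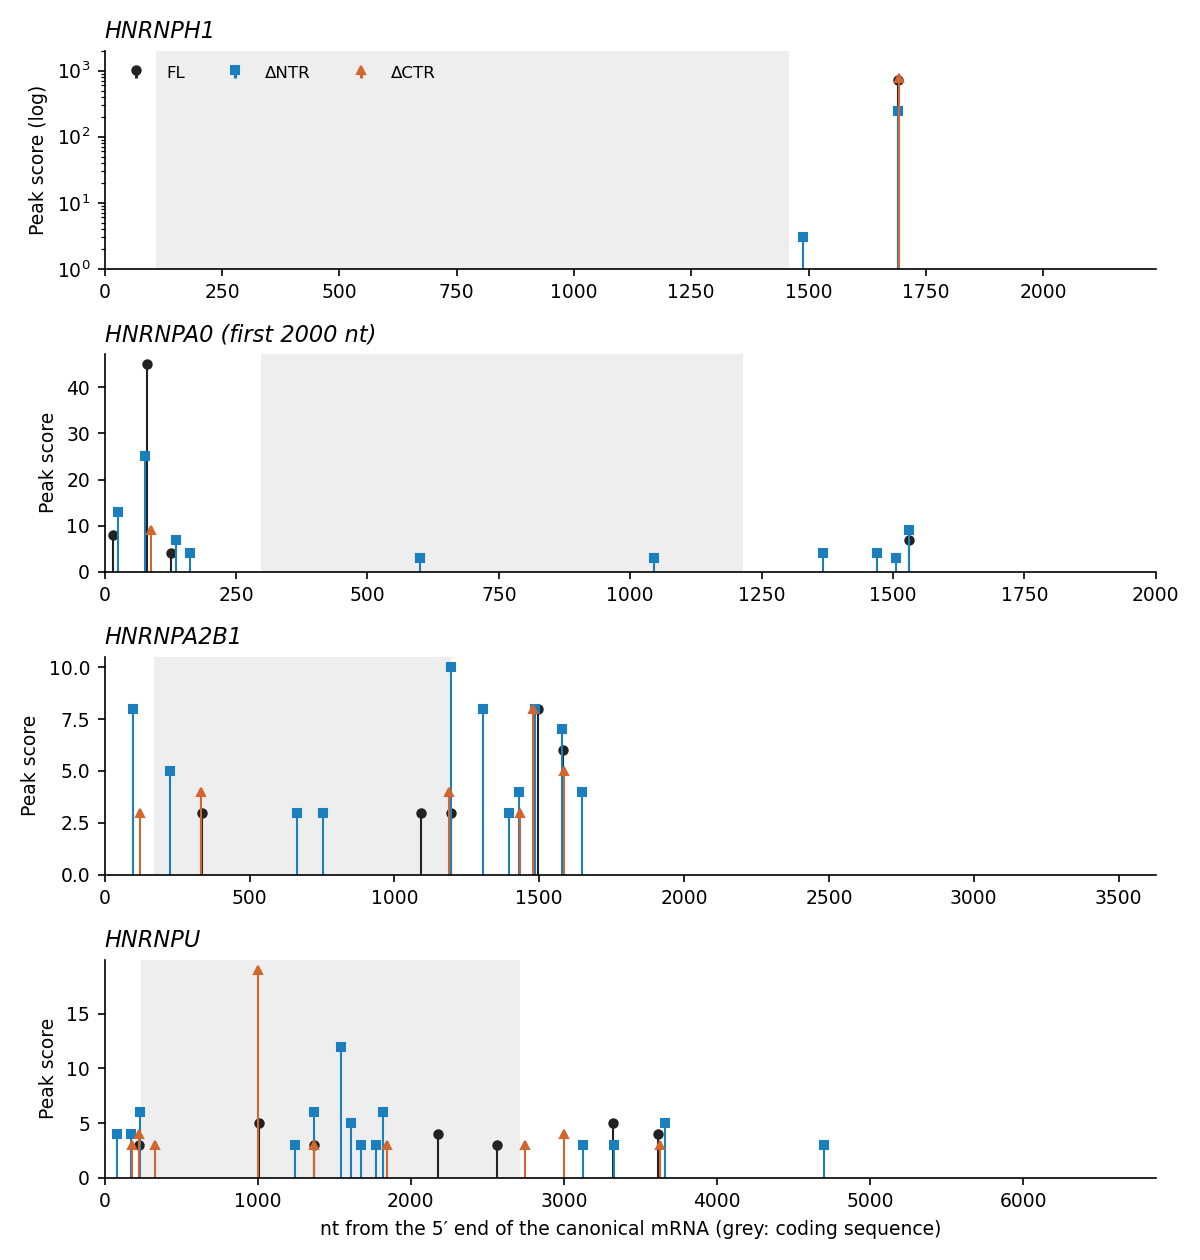
Peak score against the position of the peak centre on the canonical mRNA, in nt from its 5' end, for HNRNPH1 (log axis), HNRNPA0 (5' part of the mRNA), HNRNPA2B1 and HNRNPU in the FL (circles), ΔNTR (squares) and ΔCTR (triangles) lists, with the coding sequence of the canonical transcript in grey. HNRNPH1 has 1 shared 3'UTR site, the HNRNPA0 peaks cluster at the 5' end, and HNRNPA2B1 and HNRNPU carry many low peaks, more of them in ΔNTR than in FL or ΔCTR. The HNRNPH1 peak of 3 lies in coding sequence of another transcript, while 1 HNRNPU peak of FL, 2 of ΔNTR and 1 HNRNPA2B1 peak of ΔCTR lie outside the canonical exons and are not drawn.

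The other A/B-type members differed from each other. HNRNPA1, a splicing repressor of the same type as HNRNPA2B1, had no peak in any of the 5 lists, although it was among the most abundant of the 10 mRNAs (652 to 782 CPM). Of its exonic 31-nt stretches 57.8% occurred once in the genome and some occurred up to 33 times, and the part of this in the missing peaks was not tested. In HNRNPK, where 39.4% occurred once and none more than 5 times, 5 FL peaks were listed. HNRNPC, where 54.7% occurred once and none more than 9 times, also had 5. Both thus had lower highest copy numbers than HNRNPA1.

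HNRNPA2B1, a splicing and RNA-transport factor, had a summed score of 23 (14.6 to 34.5) in 5 FL peaks, 63 (48.4 to 80.6) in 11 ΔNTR peaks and 30 (20.2 to 42.8) in 7 ΔCTR peaks. Its highest FL peak, at chr7:26192030-26192090 (minus strand) in the 3'UTR, scored 8 in all 3 lists. The higher total in ΔNTR thus lay elsewhere. A peak at the stop codon had scores of 3, 10 and 4 in the FL, ΔNTR and ΔCTR lists, and a 3'UTR peak of 8 and a 5'UTR peak of 8 in ΔNTR overlapped no FL peak. All 31-nt exonic stretches of this gene occurred once in the genome.

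HNRNPC, which binds uridine runs in introns and packages nascent RNA, had similar totals in the 3 lists, which were 24 (15.4 to 35.7), 26 and 31 for FL, ΔNTR and ΔCTR. At its highest FL peak, in the 3'UTR at chr14:21210203-21210227 (minus strand), FL had 10, ΔNTR 17 and ΔCTR 24. The ΔCTR peak of 24 also overlapped a neighbouring FL peak of 5, so the sum of both FL peaks there was 15. A peak 18 to 22 nt from the annotated 5' end of the mRNA scored 3, 9 and 3.

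HNRNPD (AUF1), a regulator of AU-rich mRNA decay, had an FL score of 20 (12.2 to 30.9) in 5 peaks, 14 of it in 3 peaks of the 5'UTR. None of these peaks was overlapped by another list. ΔNTR had no HNRNPD peak, and ΔCTR had 3, with a summed score of 11 (5.49 to 19.7), all in the 3'UTR. HNRNPDL, its close relative, had 1 FL peak of 3, 1 ΔNTR peak of 4 and 3 ΔCTR peaks with a sum of 12.

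HNRNPF, the close relative of HNRNPH1, had none of the strong 3'UTR signal seen there. Its FL score was 14 (7.65 to 23.5), its ΔNTR score 21 and its ΔCTR score 40 (28.6 to 54.5), and 37 of the 40 were in the 3'UTR. Its highest ΔCTR peak, of 14 and 87 nt wide, overlapped no peak of FL or ΔNTR.

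HNRNPK, a KH-domain protein that binds C-rich RNA, had an FL score of 21, beside 17 (9.90 to 27.2) for ΔNTR and 38 (26.9 to 52.2) for ΔCTR. Its highest FL peak, at chr9:83968606-83968649 (minus strand) in the 3'UTR, scored 8 in FL and 24 in ΔCTR, and no ΔNTR peak overlapped it. The site is the pyrimidine-rich one printed above.

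HNRNPU (SAF-A), which links RNA to chromatin, had an FL score of 30 (20.2 to 42.8), a ΔNTR score of 72 (56.3 to 90.7) and a ΔCTR score of 45 (32.8 to 60.2). Its 16 ΔNTR peaks were spread over the gene, with a score of 38 in the coding sequence, 20 in the 5'UTR and 14 in the 3'UTR, and none exceeded 12. The 5'UTR peaks at chr1:244861731-244861747 and chr1:244861770-244861786, of score 3 each, lay outside the canonical exons, in the 5'UTR of another transcript. In ΔCTR 1 coding-sequence peak scored 19, at a place where FL had 5 and ΔNTR no peak. The highest FL peaks of HNRNPU scored 5, and 1 of them, at chr1:244853826-244853859 (minus strand), overlapped a ΔNTR peak of 3 and no ΔCTR peak.

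In the lists of variants without a La-module, 3 peaks lay in the 10 genes, each of score 3. ΔLa-module had 1 in the coding sequence of HNRNPDL, and ΔNTD had 1 in the 3'UTR of HNRNPDL and 1 in the coding sequence of HNRNPU. The 2 HNRNPDL peaks overlapped no peak of FL, ΔNTR or ΔCTR, and the HNRNPU peak overlapped an FL peak of 4. These lists held 636 and 291 peaks in all.

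The next comparison asked where on the mRNAs the peaks lay. Of the FL score 86.6% was in 3'UTRs, but without HNRNPH1 this share was 38.2%, and without HNRNPH1 and HNRNPA0 it was 51.1%, beside 52.3% for all FL peaks. The 9 genes other than HNRNPH1 had 42.2% of their FL score in 5'UTRs, 33.1% in ΔNTR and 13.9% in ΔCTR, against 4.10, 4.54 and 2.41% for all peaks. By number, 10 of 37 FL peaks lay in 5'UTRs (27.0%, Wilson 15.4 to 43.0%), against 4.54% of all FL peaks. HNRNPA0 made up much of the 5'UTR score, and in the other 8 genes the 5'UTR share was 20.0% of the FL score, 21.2% of the ΔNTR score and 10.1% of the ΔCTR score. By number, 7 of their 33 FL peaks lay in 5'UTRs (21.2%, 10.7 to 37.8%). The ΔNTR and ΔCTR values for those 8 genes were 9 of 39 and 6 of 37 peaks. The 7 FL peaks scored 3 to 7, and peaks of 1 gene are not independent of each other.

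Overlap of the lists at these genes depended on the score, as elsewhere. A ΔNTR peak overlapped 16 of the 38 FL peaks (42.1%, Wilson 27.9 to 57.8%) and a ΔCTR peak 20 of 38 (52.6%, 37.3 to 67.5%), beside 35.3 and 37.9% of all FL peaks. The 3 FL peaks of at least 10, in HNRNPH1, HNRNPA0 and HNRNPC, were overlapped by both mutants, as were 83.7% of all FL peaks of that score. Among the 20 FL peaks of score 3, 5 (25%) were overlapped by ΔNTR and 8 (40%) by ΔCTR, beside 17.0 and 18.1% of all 7694 FL peaks of that score. Seen from the mutants, 34 of 51 ΔNTR peaks (66.7%) and 21 of 39 ΔCTR peaks (53.8%) overlapped no FL peak, beside 69.9 and 65.6% over all genes. The 34 ΔNTR peaks had a summed score of 141, with 14 in coding sequences, 13 in 3'UTRs and 7 in 5'UTRs.

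To compare variants, the score of each gene was taken as a share of its list, and the log2 ratio of the shares (mutant over FL, pseudocount 1) was corrected by the log2 ratio of the PE150 CPM. Only genes whose 2 scores added up to 50 or more entered, which left 5 of the 10 for ΔNTR and 7 for ΔCTR. A gene can reach this limit through a single high list. HNRNPA2B1 and HNRNPU did so through ΔNTR, and HNRNPA0 did so through FL in the ΔCTR comparison. Neither the counts nor the ranks below are therefore support for a difference. For ΔNTR, 1 of the 5 (HNRNPH1) was at least 2-fold lower than FL, where the background was 13.4% of 803 genes, and 2 (HNRNPA2B1 and HNRNPU) were at least 2-fold higher, where it was 7.6%. For ΔCTR, 1 of 7 (HNRNPA0) was at least 2-fold lower, against 5.97% of 905 genes, and 1 (HNRNPF) at least 2-fold higher, against 5.52%. The median of the 5 genes was 0.38 in ΔNTR and that of the 7 was 0.21 in ΔCTR, beside −0.03 and −0.02 for all genes.

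HNRNPH1 had a log2 change of −1.19 in ΔNTR (interval −1.41 to −0.98), the 67th lowest of 803 genes. In ΔCTR it was −0.10 (−0.24 to 0.05). Its input was 383 CPM in the FL line, against 334 and 384 in the ΔNTR and ΔCTR lines, so the input correction moved the ΔNTR value toward 0. The raw score ratio at the peak was 0.340 for ΔNTR over FL (0.293 to 0.394) and 1.08 for ΔCTR over FL (0.978 to 1.20).

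HNRNPA0 was lower in the other mutant. Its log2 change was −2.92 in ΔCTR (−4.25 to −2.04), with 1 of 905 genes lower, and 0.32 in ΔNTR (−0.18 to 0.82). The input differed little, with 116 CPM in the FL line and 121 and 117 in the ΔNTR and ΔCTR lines. At the strongest 5'UTR peak alone the raw ratio was 0.200 for ΔCTR (0.0860 to 0.414) and 0.556 for ΔNTR (0.326 to 0.926), neither scaled to the list totals.

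HNRNPA2B1 was at 1.82 in ΔNTR (1.15 to 2.62), with 5 of 803 genes higher, and HNRNPU at 1.52 (0.91 to 2.21), with 12 higher. Both had more listed peaks in ΔNTR than in FL (11 against 5 and 16 against 8) and no peak above 12. In ΔCTR their values were 0.21 (−0.61 to 1.08) and 0.45 (−0.24 to 1.18). HNRNPF was at 1.22 in ΔCTR (0.38 to 2.28), HNRNPK at 0.61 (−0.16 to 1.49) and HNRNPC at 0.20 (−0.60 to 1.05). Both mutants were compared with the same FL list. HNRNPA1, HNRNPD and HNRNPDL stayed below the score limit in both comparisons, and HNRNPF and HNRNPK in ΔNTR.

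Summed peak score per 1000 input counts was highest for HNRNPH1 among the 10 genes in each of the 3 lists. The study corrected peak scores by gene counts, whereas here the score summed over all peaks of a gene was used. For FL, ΔNTR and ΔCTR it was 66.9, 29.7 and 75.0, ranks 3, 8 and 1 among the protein-coding genes of at least 100 CPM. HNRNPA0 had 19.6, 24.9 and 2.83, ranks 58, 16 and 1104. The other 8 genes were between 0 and 4.81 in the 3 lists. The medians of the 10 genes were 1.44, 2.74 and 2.07, beside 1.96, 2.52 and 2.58 for all those protein-coding genes. Input counts took uniquely mapped reads, and the effect of this on genes with repeated stretches was not tested.

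The genes whose change was most like that of HNRNPH1 were taken by Euclidean distance of the pair of log2 changes among 453 genes with an FL score of at least 50. They were TIMM17A (−1.09 in ΔNTR and −0.04 in ΔCTR, distance 0.117), SDF2 (−1.09 and 0.00, 0.141) and BCLAF1 (−1.11 and −0.21, 0.142). For HNRNPA0 they were PFN1 (0.17 and −1.93), DLG5 (0.15 and −1.68) and the gene ENSG00000278996 (−0.66 and −2.13). The nearest of these was at a distance of 1.00 from HNRNPA0. Likeness over these 2 values is a description only.

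The input libraries asked whether the hnRNP mRNAs themselves differed between the lines. None of the 10 genes was past 1.5-fold against parental cells in any of the 5 lines. The share of all 15651 genes past it was 4.61% in the ΔNTR line, 2.79% in the ΔLa-module line, 2.67% in the ΔNTD line, 1.37% in the ΔCTR line and 1.01% in the FL line. Per kilobase of canonical mRNA the median levels were highest for HNRNPK (231 CPM per kb), HNRNPA2B1 (226) and HNRNPA1 (206), followed by HNRNPH1 (169), HNRNPC (153), HNRNPU (122), HNRNPF (118), HNRNPD (108) and HNRNPDL (57.5), and lowest for HNRNPA0 (13.7), whose canonical mRNA has a 3'UTR of 7498 nt. In that order, neighbours with overlapping ranges over the 6 lines were HNRNPK and HNRNPA2B1, HNRNPA2B1 and HNRNPA1, HNRNPH1 and HNRNPC, HNRNPU and HNRNPF, and HNRNPF and HNRNPD, while the ranges of the other neighbours did not overlap.

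Smaller differences were seen in 2 places. In the ΔNTR line 9 of the 10 genes were below parental cells (median log2 −0.15, range −0.37 to 0.00), and 10 of 10 were below when total counts or DESeq2 size factors replaced the TMM scaling. In the SE50 libraries 4 of the 7 genes with enough counts were below parental, with a median of −0.04. HNRNPA1 was at 652 CPM in the PE150 library of the ΔNTR line and between 763 and 782 in the other 5 lines, and HNRNPD at 288 and between 323 and 347. HNRNPA0 was the exception, at 121 CPM in both lines. In the ΔNTR line 1447 of 2356 protein-coding genes of at least 100 CPM were also below parental, with a median of −0.05. So were 13 of the 16 other hnRNP genes counted further below, with a median of −0.09.

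The other was a level below parental cells in every LARP6 line, largest in HNRNPF among the 10 genes. HNRNPF was at 350 CPM in parental cells, against 303, 271, 307, 291 and 302 in the FL, ΔNTR, ΔCTR, ΔLa-module and ΔNTD lines. It was thus lower in all 5 LARP6 lines, at log2 −0.37 to −0.19, but all 5 comparisons share the single parental library. HNRNPD was also lower in all 5, at −0.27 to −0.04. So were PCBP1 (−0.26 to −0.16), HNRNPL, RBMX, HNRNPUL1 and PCBP2 among the other hnRNP genes counted further below. The share of all genes lower in all 5 lines was not counted. In the SE50 libraries, with 15 to 28 counts of HNRNPF, the parental level was 2.57 CPM, below the 3.67 CPM of the FL line and the 2.76 CPM of the ΔCTR line. Each line had 1 library per protocol, so a difference between lines and one between single libraries cannot be told apart.

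**Figure D3:**
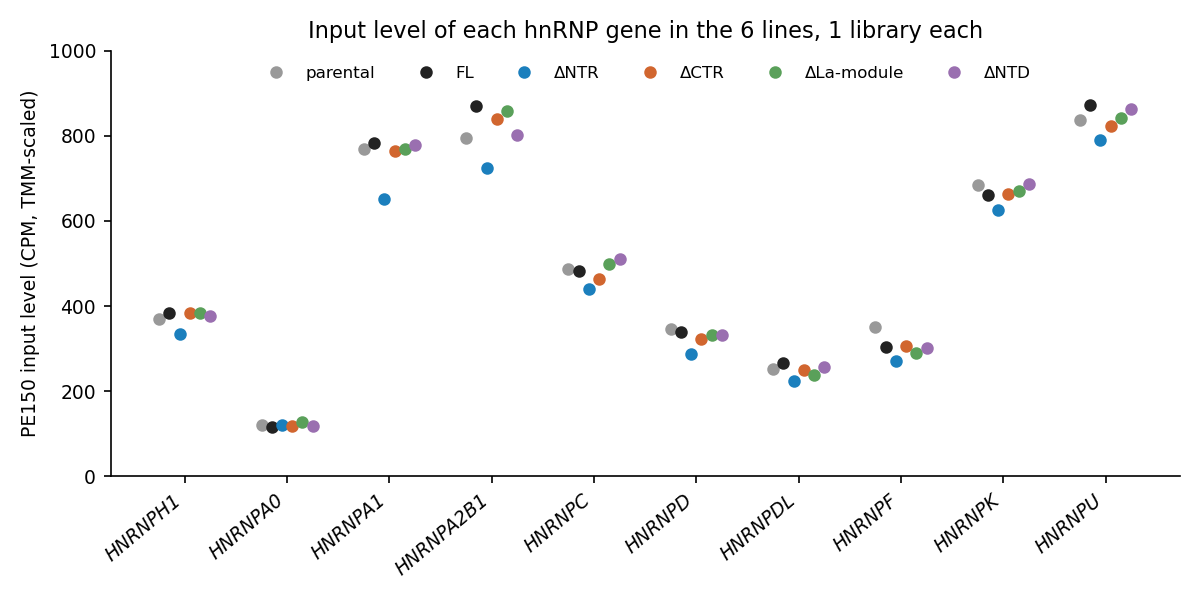
PE150 input level (CPM, TMM-scaled, linear axis from 0) of each hnRNP gene in the 6 lines, 1 point per library. The ΔNTR point is the lowest for all genes except HNRNPA0. The parental points of HNRNPF, at 350, and HNRNPD, at 347, lie above the 5 LARP6 lines.

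Other hnRNP genes were counted for comparison, from a list of 16 that included HNRNPA3, HNRNPM, HNRNPR, SYNCRIP, PTBP1, PCBP2 and RALY. Of these, 10 had an FL peak, with 34 peaks and a summed score of 147 (124 to 173) over the 16 genes. The 8 genes other than HNRNPH1 and HNRNPA0, a smaller set, had 135. The highest FL totals were those of PTBP1 (40), RALY (25) and HNRNPR (23). None came near the 720 of HNRNPH1. The peaks of the 16 genes lay in 5'UTRs in 1 of 34 cases and in 3'UTRs in 25. The 5'UTR count given above was 7 of 33 for the 8 genes, and 10 of 37 with HNRNPA0. No peak of ΔLa-module or ΔNTD was listed for these 16 genes.

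Predicted folds also varied between the sites. In the minimum free energy structure of the 101 nt around the centre, 63.2% of the bases of the HNRNPH1 peak were paired, and 52.4% of those of the HNRNPA0 peak, beside a median of 57.4% over the 1929 FL peaks of at least 10. The predicted energy was −15.2 kcal/mol for HNRNPH1 and −39.9 kcal/mol for HNRNPA0, beside a median of −23.2. The highest FL peaks of the other genes ranged from 17.6% paired and −4.6 kcal/mol in HNRNPU to 80.8% and −47.2 kcal/mol in HNRNPD. The spread around the medians was not computed, so how unusual any of these sites is cannot be said. These are predictions from genome sequence, with no probing of structure behind them.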

How the data were processed

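Per the methods, the authors demultiplexed iCLIP reads with Ultraplex, removed rRNA and tRNA reads with Bowtie2, aligned with STAR to GRCh38.p13 and removed duplicates with UMI-tools. The authors called peaks per replicate with Clippy, merged 3 replicates, summed the scores and subtracted parental peaks with bedtools 2.30.0. The deposited score is this sum, not scaled to depth. The input counts per gene were deposited as raw STAR 2.7.10b counts, after Trim Galore 0.6.10, and the reverse-strand column was used for PE150 and the forward-strand column for SE50.

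Peaks were assigned by their centre with GENCODE 44, a later release of the same build than the authors' 42, in the order CDS, 5'UTR, 3'UTR, noncoding exon, intron. Gene identifiers were matched without version (62625 of 62750). CPM used edgeR 4.0.16 TMM factors, with a pseudocount of 1 for log2. The input comparison kept genes with at least 10 counts in every PE150 library. Folds came from RNAfold 2.7.2. Scripts were tested on simulated data. All 10 genes are described, with the highest FL peak of each and every peak of at least 50. Other peaks were named after their values were seen. Genes, lists and rules were chosen with earlier results of these data known. Intervals (95%) are exact Poisson, Wilson or exact binomial and cover counting error only, and molecular identifiers are not stated for the input. Alternatives are given in the closing section.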

Additional observations from a re-analysis of the deposited data

How the results depend on the processing

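No paired analysis was possible because each peak list merges its 3 replicates and each input line has 1 library per protocol, and leaving out single replicates was not possible either. With peaks above a score of 3 only, the FL peaks in the 10 genes numbered 18, the summed FL score was 859 and the 3'UTR share of it 90.6%. Without the highest HNRNPH1 peak, the summed FL score was 199 and the 3'UTR share 38.2%. With a score minimum of 20 in place of 50, 2 of 8 genes were at least 2-fold lower in ΔNTR, HNRNPH1 and HNRNPD, beside 16.2% of 1764 genes. Another 2, HNRNPA2B1 and HNRNPU, were at least 2-fold higher, beside 13.9%. HNRNPD entered through its FL score of 20 alone, as ΔNTR had no peak there. With SE50 libraries, where the 10 genes had 3 to 143 counts each and 7 passed the count minimum, 3 genes were past 1.5-fold against parental in at least 1 line (HNRNPA0, HNRNPA2B1 and HNRNPU). The share of all genes past it in the SE50 libraries was not counted, so this count cannot be set against a background. Of 78 log2 changes of single genes under alternatives, 75 stayed within the interval of the main value and 3 left it, all for HNRNPH1: −1.68 in ΔNTR and −0.32 in ΔCTR with SE50 input, and 0.11 in ΔCTR with unscaled scores. The 78 include values that could hardly differ. The score minimum of 20 changes only which genes enter and repeats the main values, and centring on the median of all genes moves every gene alike. Unscaled scores moved the median of all genes to −0.17 in ΔNTR and 0.19 in ΔCTR. HNRNPH1 stayed at least 2-fold lower in ΔNTR and HNRNPA0 in ΔCTR under all 7 alternatives, of which the score minimum of 20 could not change either value. With peaks above 3, only 2 genes, HNRNPH1 and HNRNPA0, reached the score limit in ΔCTR, against 7 in the main setting. HNRNPF, HNRNPA2B1, HNRNPC, HNRNPK and HNRNPU no longer did, so their ΔCTR values could not be checked in this way. In ΔNTR 4 genes reached it, against 5, and HNRNPC did not.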
